A study of Mus musculus with 6 samples.

Results

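The MYC, MAX and MXD network is a set of basic helix-loop-helix leucine zipper transcription factors that share one small partner, MAX. As background, MYC proteins bind DNA as dimers with MAX at the E-box CACGTG and recruit histone acetyltransferases, while MXD proteins, MXI1 and MNT compete for the same partner and the same sites and bring SIN3 and histone deacetylase corepressors. MLX is a MAX-like protein that pairs with the glucose-sensing Mondo proteins and with some MXD proteins and MNT. In tumour cells MYC drives ribosome production, nucleotide synthesis and cell growth, and MXD proteins are typical of cells that stop dividing or differentiate.

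Members were chosen by gene symbol: Myc, Mycn, Mycl, Max, Mxd1, Mxd3, Mxd4, Mxi1, Mnt and Mlx. All 10 were found among 22105 features with a gene identifier. RNA came from 4T1, an established mouse mammary carcinoma line, harvested after 24 h. One group of 3 samples received nanoparticles named CM-PEG-PLGA@DOX/R848, at an amount equal to 2 µg/mL of doxorubicin (DOX, a topoisomerase II poison; R848 is the TLR7 and TLR8 agonist resiquimod), and the other group of 3 received phosphate-buffered saline (PBS). No genetic change is named for either group, and empty particles and free drugs were not analysed here, so the effects of the carrier and of each drug cannot be told apart. Nothing in the labels states that the samples of a group were separate cultures, and the p-values below then cover only sample-to-sample spread, possibly technical.

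Values are FPKM, fragment counts scaled by transcript length and by library total, which allow levels of different genes to be compared. Libraries of a group correlated at 0.9956 to 0.9969 (Pearson's r over tested genes, log2 scale) and those of different groups at 0.8617 to 0.8649, and the depth of the libraries is unknown. Of 8 epithelial markers, 6 reached the level tested, with Krt18 at 514 ± 6.33 FPKM after PBS and at 685 ± 22.7 FPKM after nanoparticles (mean ± SD, n = 3 per group), while Epcam stayed under 1 FPKM in every library. Of those 6, 5 were called higher after nanoparticles and Cldn4 did not pass, against 40.5% called higher and 46% lower over all tested genes. On the TPM scale 4 were called higher and 1 lower. With the trend with gene span described below removed, 3 were called higher and 1 lower. Among 8 immune markers, 7 were below 1 FPKM throughout, Ptprc (CD45) included. The remaining immune marker, Cd14, was called lower after nanoparticles, going from 11.9 to 7.13 FPKM (log2 fold change -0.67). Of the 8 fibroblast and endothelial markers, 5 were likewise below 1 FPKM throughout. The other 3 were called lower after nanoparticles. Pdgfra went from 20.5 to 4.76 FPKM, Pdgfrb from 12 to 2.9 FPKM and Cdh5 from 8.42 to 1.54 FPKM (log2 fold changes -1.90, -1.74 and -1.89). The summed level of these 8 markers ranged from 41.2 to 41.4 FPKM in PBS and from 9.33 to 11.2 FPKM in nanoparticle libraries, and that of the 8 epithelial markers from 800 to 814 FPKM and from 1111 to 1152 FPKM. The part of these marker changes in the results below was not tested. A fold change compares RNA from whole cultures, in which fewer cells of a kind and less RNA per cell cannot be told apart.

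Myc, Mycl, Mxd1 and Mxd3 rose more than 2-fold, Max, Mlx and Mnt rose by less, and Mxi1 and Mxd4 fell. A gene was tested where at least 3 of the 6 libraries reached 1 FPKM, with limma on log2(FPKM + 1) over 10863 genes, and called at a Benjamini-Hochberg adjusted p under 0.05. Of the 10 members 9 were tested, of which 7 were called higher and 2 lower. Over all tested genes 40.5% were called higher and 46% lower, 86.4% in either direction, so that a call alone sets no member apart. At least 2-fold rises with a call made up 10.2% of tested genes and 4 of the 9 tested members, and at least 2-fold falls 13.5% of tested genes and 0 of the 9. The groups did not overlap for any of the 9, nanoparticle libraries lying above in 7 and below in 2, against 40.8% and 46.4% of all tested genes. The median log2 fold change was 0.66 in the tested members and -0.06 in all tested genes. Mycl, which is counted in the 4 and in the median of 0.66, reached 1 FPKM in nanoparticle libraries alone. The filter thus fixed its direction in advance. Among the 8 members at or above 1 FPKM in libraries of both groups, 6 rose and 2 fell.

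**Figure D1:**
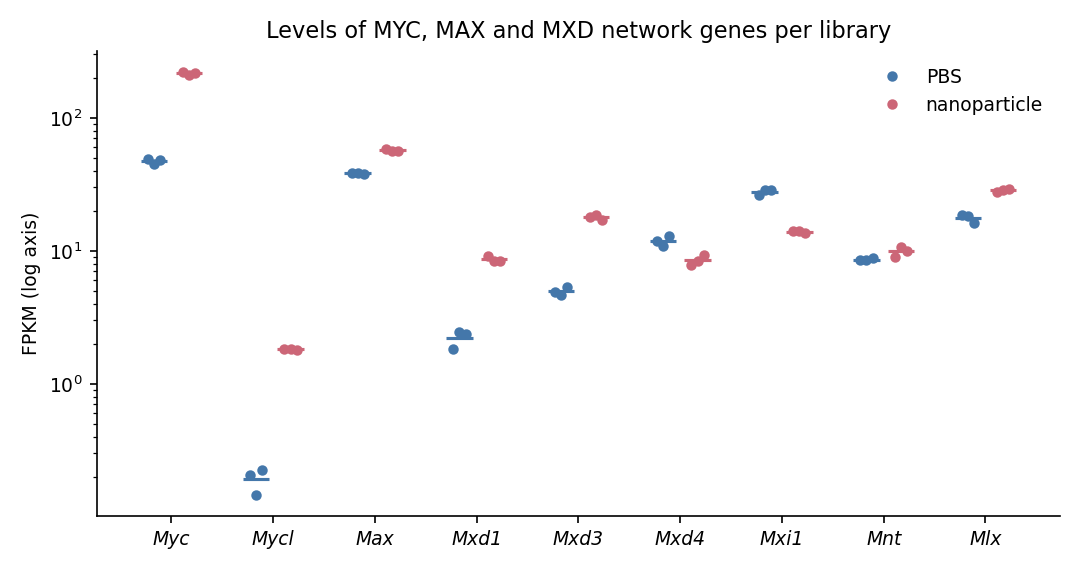
FPKM (log axis) of the 9 members above the floor, 1 point per library, with PBS in blue, nanoparticle in red and a horizontal bar at each group mean. Myc is the highest member in both groups, Mxi1 and Mxd4 are the members whose nanoparticle points lie below the PBS points, and the 2 groups of Mnt lie closest together.

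Of the activating members, Myc was the most abundant network gene in both groups. Its 3 PBS libraries held 49.1, 44.9 and 47.8 FPKM and its nanoparticle libraries 221, 211 and 217 FPKM. The lowest nanoparticle library therefore stood far above the highest PBS library, and the ratio of group means was 4.58 (log2 fold change 2.17 with a standard error of 0.04, 95% confidence interval 2.09 to 2.25, adjusted p = 4.75e-11, limma). In PBS libraries the Myc mean exceeded that of 86.8% of tested genes, and in nanoparticle libraries that of 97.3%. Myc (ENSMUSG00000022346) lies at GRCm38 chromosome 15, 61985391 to 61990374, on the plus strand, and spans 4.98 kb. The neighbouring noncoding gene Pvt1 was not analysed here.

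The other MYC paralogs were scarce. Mycl, which encodes L-MYC, held 0.205, 0.147 and 0.223 FPKM in PBS libraries and 1.81, 1.82 and 1.81 FPKM in nanoparticle libraries (log2 fold change 1.24, adjusted p = 1.06e-07, limma). At such low levels the added 1 FPKM shrinks the fold: with a pseudocount of 0.1 the log2 fold change was 2.72, and the ratio of group means was 9.46. The groups were well apart, but even the nanoparticle mean was above that of just 8.98% of tested genes. More genes had any signal in the nanoparticle libraries, with 18319 to 18509 above 0 FPKM against 13544 to 13808 in PBS libraries; of 10355 genes under 0.25 FPKM in every PBS library, 53 (0.512%), Mycl among them, reached 1 FPKM in every nanoparticle library. The part of this wider detection in the Mycl value was not tested. Mycn, which encodes N-MYC, was listed at 0 in 2 libraries of each group and at 0.0207 and 0.0225 FPKM in the remaining PBS and nanoparticle library, and was not tested.

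Max, the shared partner, rose less than Myc. It stood at 38.6, 38.7 and 37.5 FPKM in PBS libraries and at 58.5, 56.7 and 56.1 FPKM in nanoparticle libraries (log2 fold change 0.56, 95% confidence interval 0.50 to 0.63, adjusted p = 6.29e-08, limma). The spread within either group was small against this step. Max (ENSMUSG00000059436) is on the minus strand of chromosome 12, 76937269 to 76962201. The ratio of Myc to Max, which does not depend on how libraries are scaled, was 1.27, 1.16 and 1.27 in PBS libraries and 3.79, 3.72 and 3.87 in nanoparticle libraries. The mean log2 ratio was thus higher by 1.62 (exact permutation test over samples, two-sided, p = 0.1, the smallest that 3 against 3 can give, so that 0.05 is out of reach).

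The repressive partners of MAX moved in opposite directions. Mxd3, an MXD protein known from S phase of dividing cells, held 4.92, 4.63 and 5.38 FPKM in PBS libraries and 17.9, 18.6 and 17.05 FPKM in nanoparticle libraries, a ratio of means of 3.59 (log2 fold change 1.66 with a standard error of 0.06 and limma adjusted p = 3.92e-09). Mxd1, the founding MXD protein and a marker of differentiating cells, held 1.84, 2.46 and 2.36 FPKM and then 9.11, 8.44 and 8.35 FPKM, a ratio of 3.89 (log2 fold change 1.58 with a standard error of 0.08 and limma adjusted p = 5.09e-08). Both were low in PBS libraries, and neither had overlapping groups. Mxd3 (chromosome 13, 55325168 to 55329823) shares 105 exonic bases with Prelid1 on the opposite strand, whose means were 123 and 109 FPKM, and whether counting used strand is not stated in these sources, so reads in that stretch cannot be assigned.

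Mxi1, also called MXD2, was the repressive partner with the highest PBS level and fell. Its PBS libraries held 26.4, 28.7 and 28.6 FPKM and its nanoparticle libraries 14.1, 14.0 and 13.6 FPKM, so that the PBS mean was 2-fold higher (log2 fold change -0.95, 95% confidence interval -1.05 to -0.86, adjusted p = 1.88e-08, limma). Mxd4, which encodes MAD4, held 11.9, 10.9 and 12.9 FPKM and then 7.78, 8.39 and 9.26 FPKM (log2 fold change -0.44, 95% confidence interval -0.61 to -0.28, adjusted p = 0.000291, limma). Its groups did not overlap, the highest nanoparticle library (9.26 FPKM) lying below the lowest PBS library (10.9 FPKM). Mnt, the broadly expressed MAX partner that is held to counter MYC in growing cells, held 8.47, 8.56 and 8.78 FPKM and then 9.01, 10.7 and 10.04 FPKM. That rise passed narrowly (log2 fold change 0.18, 95% confidence interval 0.04 to 0.32, adjusted p = 0.0184, limma). It did not pass on the TPM scale, where every library has the same sum (log2 fold change 0.04, adjusted p = 0.538, limma), nor without PBS library 1, nanoparticle library 2 or nanoparticle library 3 (adjusted p = 0.0535, 0.0676 and 0.0522, limma). With the trend with gene span and exonic length removed, its sign turned (log2 fold change -0.02, adjusted p = 0.757, limma).

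Mlx rose from 18.7, 18.3 and 16.3 FPKM in PBS libraries to 27.8, 28.6 and 29.4 FPKM in nanoparticle libraries (log2 fold change 0.66, adjusted p = 1.19e-06, limma). Mlx (chromosome 11, 101087277 to 101092207) shares 385 exonic bases with Psmc3ip on the opposite strand, which stood at 9.93 and 29.8 FPKM, and reads there cannot be assigned either; its part in the Mlx value was not tested. The Mondo partner of MLX went the other way. Mlxip, which encodes MondoA, fell from 12.4, 12.9 and 12.9 FPKM to 6.61, 6.24 and 6.12 FPKM, a log2 fold change of -0.91 (limma adjusted p = 5.73e-08). Mlxipl, which encodes ChREBP, was listed at 0 in every PBS library and at 0.227, 0.0882 and 0.139 FPKM in nanoparticle libraries, and was not tested. The ratio of Mlx to Mlxip, chosen after its values were seen, was 1.39 ± 0.124 in PBS and 4.53 ± 0.301 in nanoparticle libraries.

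The order of the members by mean level changed. In PBS libraries it ran Myc, Max, Mxi1, Mlx, Mxd4, Mnt, Mxd3, Mxd1, Mycl and Mycn, with no overlap between the libraries of neighbours. In nanoparticle libraries it ran Myc, Max, Mlx, Mxd3, Mxi1, Mnt, Mxd1, Mxd4, Mycl and Mycn. There Mnt overlapped Mxd1, and Mxd1 overlapped Mxd4, so these 3 could not be ranked against each other beyond their spread. Mxd3 moved from rank 7 to rank 4 and Mxi1 from rank 3 to rank 5. Mxd4 moved from rank 5 to a place within ranks 6 to 8, which these 3 share.

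Myc made up a larger share of the transcripts for MAX partners after nanoparticles. Of the summed FPKM of Myc, Mycn, Mycl, Mxd1, Mxd3, Mxd4, Mxi1 and Mnt, Myc was 47.7%, 44.8% and 45.1% in PBS libraries and 78.7%, 77.3% and 78.3% in nanoparticle libraries (exact permutation test over samples, two-sided, p = 0.1, the smallest possible). That sum was 103 ± 2.82 FPKM after PBS and 277 ± 4.17 FPKM after nanoparticles. As Max rose less, its level was 37.1 ± 1.58% of the summed partners in PBS and 20.6 ± 0.318% in nanoparticle libraries. These are shares of transcripts; protein levels and dimers were not measured.

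The summed level of the 5 repressive partners differed little while its makeup turned over. The sum of Mxd1, Mxd3, Mxd4, Mxi1 and Mnt, a measure chosen after its values were seen, was 53.6, 55.3 and 58 FPKM in PBS libraries and 57.9, 60.1 and 58.3 FPKM in nanoparticle libraries, and the groups overlapped. On the TPM scale it was 131 ± 5.32 and 125 ± 3.19. Within this sum Mxi1 went from 50.2 ± 1.54% to 23.7 ± 0.624% and Mxd4 from 21.4 ± 1.46% to 14.4 ± 1.29%. Mxd3 went from 8.95 ± 0.496% to 30.4 ± 0.973% and Mxd1 from 3.99 ± 0.517% to 14.7 ± 0.904%. Mnt was 15.5 ± 0.329% and 16.8 ± 1.14%. Mxi1 was thus the leading repressive partner in every PBS library and Mxd3 in every nanoparticle library.

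**Figure D2:**
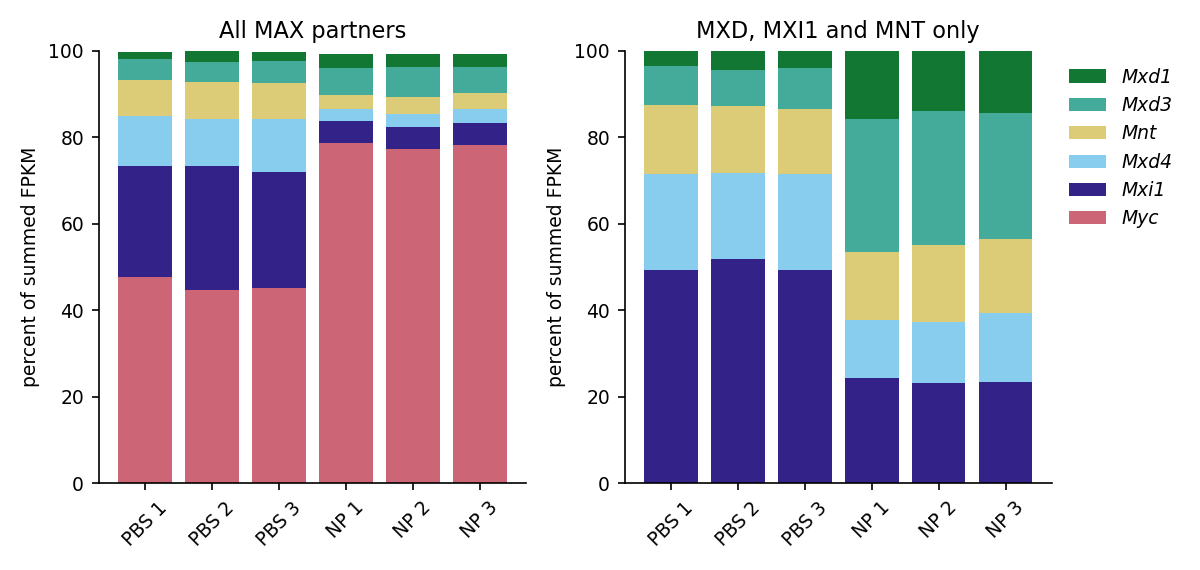
Stacked bars give, for each library (NP, nanoparticle), the percent of summed FPKM held by each MAX partner (left) and by each repressive partner alone (right); Mycl and Mycn, under 1% of the sum, are left out of the drawing. Myc fills 44.8% to 47.7% of the left bars in PBS and 77.3% to 78.7% in nanoparticle libraries, and on the right the Mxi1 block shrinks while the Mxd3 and Mxd1 blocks grow.

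Genomic span moved with these changes. Tested genes spanning under 10 kb had a median log2 fold change of 0.34 and 60.2% were called higher, while of those spanning 60 to 120 kb the median was -0.69 and 80.1% were called lower. Myc, Mycl, Mxd3 and Mlx belong to the first class, and Mxi1 (65.3 kb), Mlxip (63.1 kb) and Mga (72.4 kb) to the second. Max, Mxd1, Mxd4 and Mnt span 10 to 30 kb, a class with a median of 0.17. With a smooth trend with span and exonic length over all tested genes removed, log2 fold changes were 1.80 for Myc, 1.28 for Mxd3, -0.48 for Mxi1 and -0.44 for Mlxip, all called. Mlx dropped from 0.66 to 0.27 and stayed called, Mxd4 went from -0.44 to -0.70, and Mnt, at -0.02, was no longer called. Mga, the large dual-specificity MAX partner, fell from 4.5 ± 0.122 to 3.34 ± 0.205 FPKM, a log2 fold change of -0.34 (limma adjusted p = 0.000447), and with the trend removed it was higher (log2 fold change 0.26, adjusted p = 0.00292, limma). Why span and change go together was not tested.

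**Figure D3:**
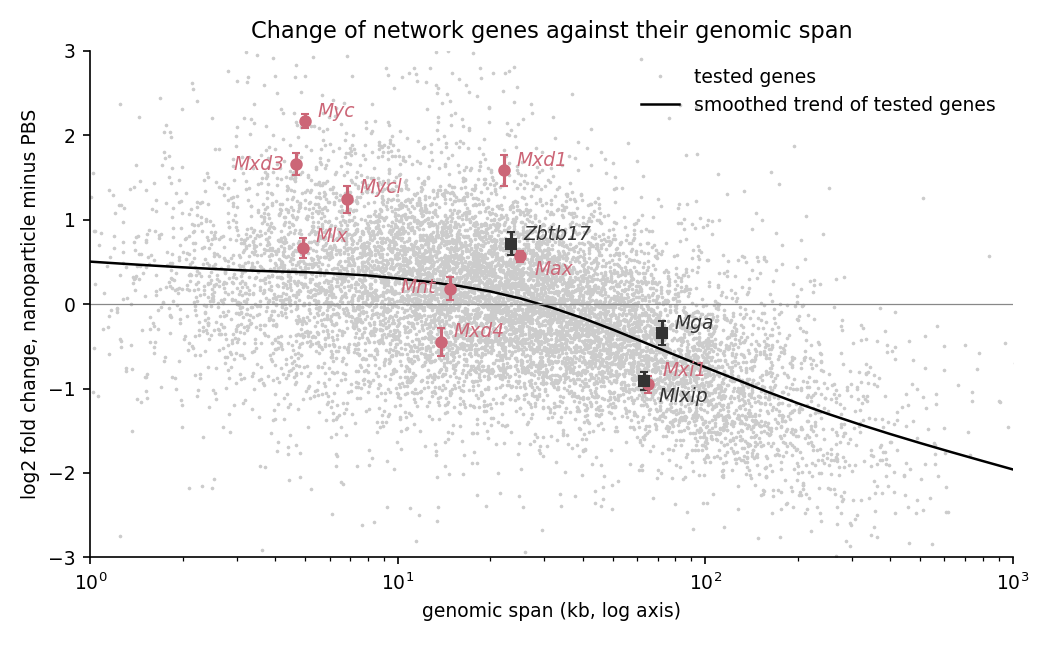
Log2 fold change (nanoparticle minus PBS) against genomic span in kb (log axis) for tested genes (grey; genes outside the axis ranges are not drawn), with the smoothed trend as a black line. Network members are red circles and Mga, Mlxip and Zbtb17 black squares, with 95% confidence intervals; Myc, Mxd3 and Mxd1 lie well above the line, and Mxd4 and Mxi1 lie below it.

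Because MYC, MXD, MNT and MLX dimers bind CACGTG, RefSeq start sites of the network genes (GRCm38.p6, 250 bases before to 50 after each start) were searched for these letters. The motif reads the same on both strands, so 1 search covers both. A window was found for 9 of the 10 members, not for Myc. The motif was present once each in Max, Mxd4, Mnt and Mlx and was absent from the windows of Mycn, Mycl, Mxd1, Mxd3 and Mxi1, against 8.09% of 27025 genes with at least 1 window. The 4 genes with the motif include 3 that rose and 1, Mxd4, that fell. They are shown 5′ to 3′ on the gene's strand with the motif in capitals. For Max, 26 bases around the motif are given, whose first base lies 3 before the start (chr12:76962236-76962261, minus strand). For Mlx (chr11:101087040-101087289, plus strand), Mnt (chr11:74830674-74830923, plus strand) and Mxd4 (chr5:34187711-34187960, minus strand) the 250 bases before the start are given, with the motif 40, 123 and 219 bases before it. Mxd1 (chr6:86669160-86669409, minus strand) is added as a strongly raised member whose window lacks the motif. A match is only a run of letters; binding was not measured.
Max: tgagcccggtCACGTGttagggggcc
Mlx: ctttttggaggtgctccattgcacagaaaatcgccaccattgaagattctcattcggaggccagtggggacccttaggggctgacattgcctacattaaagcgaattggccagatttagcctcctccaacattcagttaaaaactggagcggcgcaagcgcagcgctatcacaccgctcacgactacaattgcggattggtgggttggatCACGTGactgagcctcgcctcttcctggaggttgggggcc
Mnt: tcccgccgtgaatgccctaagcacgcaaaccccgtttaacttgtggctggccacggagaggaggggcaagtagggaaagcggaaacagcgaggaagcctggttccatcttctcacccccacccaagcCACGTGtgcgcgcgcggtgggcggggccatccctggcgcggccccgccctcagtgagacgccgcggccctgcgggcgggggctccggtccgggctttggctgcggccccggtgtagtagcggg
Mxd4: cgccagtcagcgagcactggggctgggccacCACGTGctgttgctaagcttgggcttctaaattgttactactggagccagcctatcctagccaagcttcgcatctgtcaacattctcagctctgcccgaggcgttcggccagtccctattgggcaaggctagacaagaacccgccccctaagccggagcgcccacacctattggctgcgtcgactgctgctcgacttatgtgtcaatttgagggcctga
Mxd1: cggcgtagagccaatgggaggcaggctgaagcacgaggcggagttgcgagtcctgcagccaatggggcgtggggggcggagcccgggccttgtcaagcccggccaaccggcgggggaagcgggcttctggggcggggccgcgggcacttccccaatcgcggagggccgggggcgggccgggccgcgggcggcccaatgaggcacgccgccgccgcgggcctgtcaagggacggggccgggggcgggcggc

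The cofactors of the network split in both groups. Counts in this and the lists that follow stand beside the shares over all tested genes, 40.5% called higher and 46% lower, and the calls alone set no list apart. Of 16 MYC coactivator genes, all tested, 9 rose, 6 fell and 1 did not pass (Kat5), with a median log2 fold change of 0.23. Paf1, of the elongation complex PAF1, rose from 25.1 ± 0.533 to 60.1 ± 0.293 FPKM and Actl6a, an actin-like subunit of chromatin remodellers, from 27.2 ± 0.779 to 52.8 ± 1.47 FPKM. Of 15 MXD and MNT corepressor genes 8 rose and 7 fell, with a median of 0.37. Sap18, a SIN3-associated protein, rose from 22.6 ± 0.94 to 49.4 ± 0.666 FPKM. Arid4b and Ncor1, with spans of 136 and 142 kb, fell by 1.75 and fell by 1.38 on the log2 scale. Zbtb17, which encodes MIZ1, the zinc finger partner through which MYC represses genes, rose from 7.1 ± 0.601 to 12.3 ± 0.157 FPKM, a log2 fold change of 0.71 (limma adjusted p = 1.8e-06).

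Genes for MYC protein turnover divided as well, with 8 of 16 higher, 7 lower and 1 not passing (Trim32), and a median of -0.01. Aurka, a mitotic kinase known to shield N-MYC from breakdown, had a log2 fold change of 1.86. Huwe1, a ubiquitin ligase of MYC, fell from 28.8 ± 0.362 to 7.13 ± 0.26 FPKM, and Gsk3b, the kinase that marks MYC for the ligase FBXW7, fell from 10.7 ± 0.564 to 2.04 ± 0.0333 FPKM. The genes of this list at 2-fold or more numbered 1 higher and 5 lower, against 10.2% and 13.5% of all tested genes. Of the 5 lower, Huwe1, Gsk3b, Fbxw7 and Btrc span 135, 157, 164 and 166 kb. Of all tested genes spanning 120 kb or more, 90.4% were called lower, whatever the size of the fall. Their median log2 fold change was -1.17. The other, Fbxo32, spans 39.1 kb and fell from 9.64 ± 0.11 to 2.82 ± 0.115 FPKM (log2 fold change -1.48). In the same list Skp2 and Stub1 rose (log2 fold changes 0.78 and 0.32) and Usp28 fell (log2 fold change -0.60). Fbxw7, Btrc, Fbxo32, Skp2, Stub1 and Usp28 are named after their values were seen.

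More of the textbook genes activated by MYC rose than fell. Of 30 such genes, a list chosen with earlier results of these data known, 22 rose (73.3%), 7 fell (23.3%) and 1 did not pass (Eif4e), with a median log2 fold change of 0.58, against 40.5% higher and 46% lower over all tested genes. Tert, the catalytic subunit of telomerase and 1 of the 7, named after its values were seen, was under 1 FPKM in every nanoparticle library (1.2 ± 0.159 and 0.719 ± 0.0946 FPKM), so that the filter fixed its direction. Odc1, the first enzyme of polyamine synthesis, rose from 372 ± 3.21 to 733 ± 9.45 FPKM. Gnl3, which encodes nucleostemin, rose from 50.1 ± 0.963 to 126 ± 3.6 FPKM, and Nop56, a box C/D small nucleolar ribonucleoprotein, had a log2 fold change of 1.56. The falls were smaller, down to -0.50 for Npm1, an abundant nucleolar chaperone that went from 1211 ± 46.1 to 857 ± 29.7 FPKM. Ldha, lactate dehydrogenase, was at 600 ± 21.8 and 510 ± 8.03 FPKM and Hk2, hexokinase 2, at 28.3 ± 0.596 and 21.4 ± 0.843 FPKM (both called lower; Npm1, Ldha and Hk2 are chosen for naming with their values in view). The list's median span was 12.8 kb, against 23.2 kb over all tested genes. Of all tested genes, 60.2% of those spanning under 10 kb and 51.8% of those spanning 10 to 30 kb were called higher. On the TPM scale 20 of the list were called higher and 7 lower. With the trend with span and exonic length removed, 19 were called higher and 9 lower.

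Genes that MYC is known to repress did not move one way. Of 11, 8 were tested, of which 4 rose and 4 fell, with a median of 0.10. Cdkn1a (p21) and Ddit3 (CHOP) had log2 fold changes of 3.60 and 3.34, and Thbs1, an inhibitor of blood vessel growth, rose from 27.8 ± 0.406 to 66.1 ± 1.28 FPKM. Cdkn1b (p27), named after its values were seen, fell from 34.3 ± 0.643 to 18.6 ± 0.734 FPKM. Of 9 targets of MLX and Mondo proteins, 7 were tested; 3 rose, 3 fell and 1 did not pass (Arrdc4). Txnip, the glucose-responsive thioredoxin inhibitor, rose from 105 ± 2.77 to 426 ± 12.7 FPKM (log2 fold change 2.00) while Mlxip fell. Klf10 rose by 1.38 on the log2 scale. Elovl6, a fatty acid elongase of 106 kb, fell by 2.25, Acaca, acetyl-CoA carboxylase, fell by 1.93 and Tkt, transketolase, fell by 0.25 on the log2 scale.

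**Figure D4:**
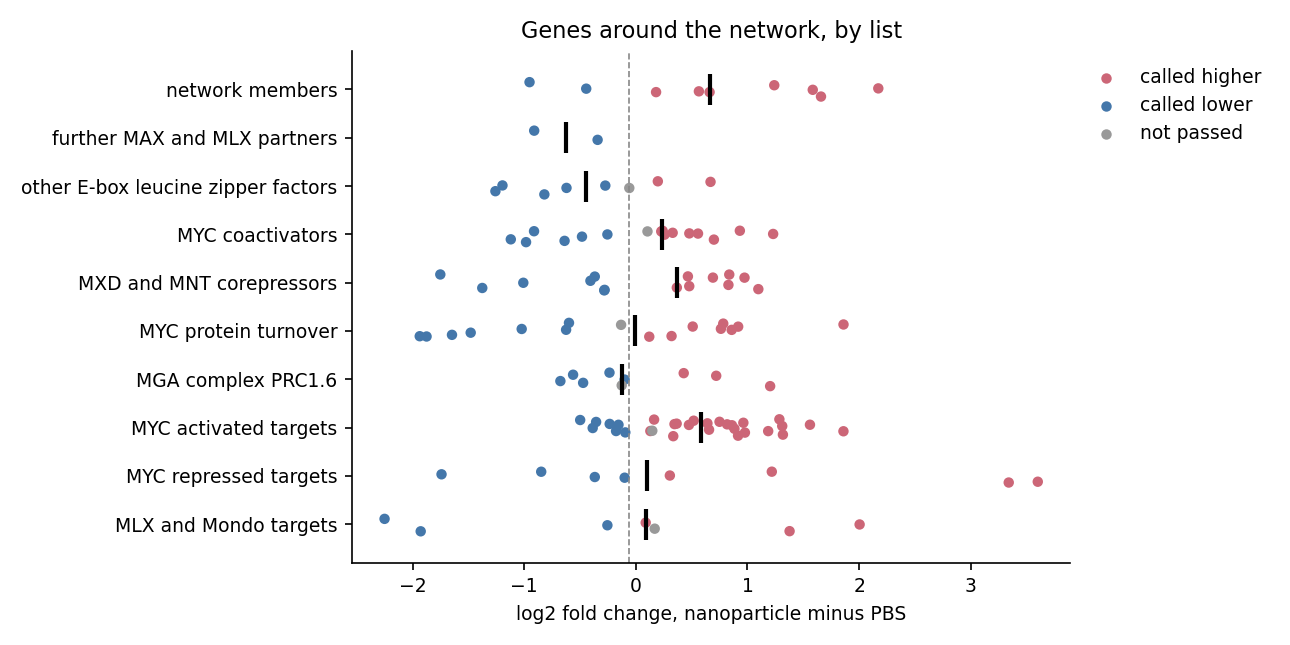
Log2 fold change (nanoparticle minus PBS) of each tested gene by list, red where called higher, blue where called lower and grey where not passed; points are spread vertically for legibility, black bars are list medians and the dashed line is the median of all tested genes (-0.06). The activated targets have a median of 0.58, while coactivators, corepressors and turnover genes have points on both sides of 0.

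The genes whose change across the 6 libraries lay nearest to that of Myc, by Euclidean distance of log2(FPKM + 1) from each gene's own PBS mean, were Ppa1 (distance 0.05), an inorganic pyrophosphatase, Fosl1 (0.08), an AP-1 subunit, and F2rl1 (0.08), the receptor PAR2. Ppa1 stood at 27 and 127 FPKM in mean, Fosl1 at 26.7 and 123 FPKM and F2rl1 at 9.73 and 46.8 FPKM. With 2 groups this likeness mostly reflects an equal fold change.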

How the data were processed

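RNA of 3 PBS and 3 nanoparticle samples was sequenced. The authors deposited 1 table of FPKM values; the unit is inferred from the values, as the file header does not name it. STAR, featureCounts, GRCm38 and mm10 are named, without roles or versions, per the submitters' processing notes. Of 22806 features, 701 without a gene identifier (0.631% to 0.67% of each library's sum) were left out. Ratios of low values (under 0.2 FPKM) between libraries showed no steps of 1 read (at most 1.8% in a 1% bin), which leaves depth unknown and allows no counting intervals.

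Genes reaching 1 FPKM in at least 3 libraries were fitted as log2(FPKM + 1) with limma 3.58.1 (trend and robust; statmod 1.5.0, R 4.3.3), nanoparticle minus PBS, without a replicate block, and checked on simulated data. Fold changes on this scale understate those of low genes. Benjamini-Hochberg adjustment ran over all tested genes. Leave-one-out fits kept the same genes. Positions come from GENCODE M21 (99.5% of identifiers matched). Python 3.11.15, numpy 2.4.6, pandas 2.3.3, scipy 1.17.1 and matplotlib 3.10.9 were used.

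Members and lists were chosen with earlier results of these data known. A naming rule took all members, Mga, Mlxip, Mlxipl, Zbtb17 and Pvt1. Added were the 3 smallest adjusted p of each list, up to 3 genes called against a list's majority, and the 3 genes nearest to Myc. In the MLX and Mondo targets, where calls tied at 3 and 3, the genes called lower were taken as the minority. Listed genes that did not pass, some cell type markers and genes overlapping a member are named as such. Others are marked. Of the genes the naming rule chose, 1 is left out of the text.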

Additional observations from a re-analysis of the deposited data

How the results depend on the processing

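The alternatives were a replicate block, each library left out, 2 other scalings, no low-value filter, a pseudocount of 0.1 and removal of the trend with span and exonic length. Under all 12 of them the tested members other than Mnt kept direction and call. With no filter, 8445 genes were called higher, against 4395, among 20124 tested, and 61.8% of calls were higher against 46.8%. With the span and length trend removed, Mnt (-0.0209) and Mga (0.2582) reversed; the cause was not tested. Log2 fold changes ranged from 1.80 to 2.24 for Myc, 0.91 to 2.72 for Mycl, 0.42 to 0.63 for Max, 0.27 to 0.72 for Mlx and -1.13 to -0.48 for Mxi1. Without 1 library at a time, the Myc share of MAX partners was higher by 31.7 to 33.2 percentage points (33.2 with Mga added) and the log2 ratio of Myc to Max by 1.57 to 1.64. Rescaling to TPM moved the median of all tested genes from -0.06 to -0.21, and no tested member changed direction. The block gave 4389 higher and 4982 lower calls (main, 4395 and 4996) and changed no member's call. With group means removed, same-numbered samples had correlations of -0.01, -0.04 and 0.04, and not every sample correlated best with its own number. Whether same-numbered samples shared a culture or batch is not stated, and these values cannot decide it. Depth is unknown, which limits Mycl, Mycn and Mlxipl most.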

Other observations

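Other leucine zipper factors that read E-boxes were called in both directions. Of 9 listed, 8 were tested, of which 5 fell (62.5%, against 46% of all tested genes), 2 rose (25%, against 40.5%) and 1 did not pass (Usf2), with a median log2 fold change of -0.45. Srebf2, the regulator of cholesterol synthesis, fell from 37.5 ± 0.309 to 24.1 ± 0.263 FPKM, and Mitf, the melanocyte and lysosome factor, from 2.85 ± 0.167 to 0.682 ± 0.0391 FPKM. Every nanoparticle library of Mitf was under 1 FPKM, so the filter fixed its direction, and it spans 214 kb. Usf1, an upstream stimulatory factor, rose from 26 ± 0.985 to 41.9 ± 0.188 FPKM, and Srebf1 rose by 0.20 on the log2 scale. On the TPM scale, 1 of the list was called higher.

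Among 9 partners of MGA in the polycomb complex PRC1.6, 5 fell (55.6%), 3 rose (33.3%) and 1 did not pass (Rybp), near the 46% and 40.5% of all tested genes. L3mbtl2, a methyl-lysine reader, rose from 4.49 ± 0.422 to 11.6 ± 0.406 FPKM, Tfdp1, the dimer partner of E2F factors, from 80.7 ± 0.828 to 134 ± 3.67 FPKM, and Pcgf6 by 0.43 on the log2 scale. Cbx3, a heterochromatin protein, fell from 55.2 ± 2.18 to 37.1 ± 1.47 FPKM. With the span and length trend removed, 5 were called higher.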
